A study of Homo sapiens with 60 samples.

Results

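HCC827 is an EGFR-mutant non-small cell lung cancer (NSCLC) line that was held in osimertinib for 21 days and then either harvested or kept without drug for 4 days. The comparison was made between 6 of the 60 RNA-seq libraries of the series, chosen by their labels alone, with no measured value used. They were 3 libraries of the drug-tolerant persisters (DTPs), harvested after 500 nM osimertinib for 21 days, and 3 libraries of the long washout, harvested after the same drug exposure and a further 96 h in drug-free medium. The labels state biological triplicates and say that, in each line, the long washout lasted until exponential growth returned. All 6 libraries came from the same line, grown as a monolayer in RPMI 1640 with serum, and all had passed through the 21 days of drug. Beside them stood the short washout (24 h without drug after the same 21 days, n = 3), DMSO (cells grown without drug and given solvent for 24 h, n = 3) and acute osimertinib (cells without earlier exposure, 500 nM for 24 h, n = 3). PC9, H1975 and HCC2935, the other lines of the series, had the same 5 arms. HCC827 stands here for 1 line, and no clones or single cells were measured.

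EGFR is the receptor tyrosine kinase on which such tumours depend, and osimertinib binds its kinase domain irreversibly. Active EGFR signals through RAS to the kinase ERK, which switches on immediate early genes such as FOS and EGR1 within minutes and, later, feedback inhibitors such as DUSP6. DTPs are the few cells that outlive the drug in a slow-cycling state, which is known to be reversible in many models. Whether 4 days without drug move the transcriptome of HCC827 away from that of DTPs is the question the comparison addresses. Distance from unexposed cells is read from the comparison with DMSO, where the arms differ in drug history and in length of treatment together.

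A DTP library held between 19.1 and 22.2 M estimated counts, a long washout library between 18.4 and 18.6 M, and all 60 libraries between 17.7 and 49.1 M. The epithelial markers EPCAM, KRT8, KRT18, KRT19 and CDH1 were present in every library of both arms, with a summed level between 2710 and 3905 CPM (counts scaled to a common library size, TMM-normalised) in DTPs and between 3550 and 4239 CPM after long washout. Of 7 leukocyte markers, 4 reached 1 CPM in any library and CD3E was at 0. Their sum of 90.0 to 169 CPM in DTPs and 153 to 175 CPM after washout was mostly CD68, a lysosomal protein. Endothelial markers summed to at most 5.11 CPM, and the sum of 6 fibroblast markers, led by COL1A1, lay between 67.0 and 145 CPM in DTPs and between 86.9 and 136 CPM after washout. The labels name HCC827 as the only cells in these libraries, so these markers are read as transcripts and not as other cell types. Which cells of the line held them was not tested. Because whole cultures were lysed, fewer cells that express a gene and less RNA per cell cannot be told apart.

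The arms did not separate the libraries. DTP library 1, short washout library 1 and long washout library 3 stood apart from the other 6 libraries of these 3 arms. Correlations of log2 CPM among these 3 were 0.968 to 0.978, among the other 6 they were 0.971 to 0.981, and between these sets they were 0.954 to 0.967. Of 14665 genes, 1288 were higher in all 3 than in each of the other 6, and 1318 were lower. MMP2, a matrix metalloprotease, lay between 30.0 and 44.8 CPM in the 3 libraries and between 1.88 and 4.71 CPM elsewhere. CP, which encodes ceruloplasmin, went the other way, with 1.60 to 7.00 CPM against 11.1 to 63.5 CPM. The 3 libraries, MMP2 and CP were chosen after their values were seen, so the counts of genes describe this split and do not test it. Since each arm held 1 such library, the spread within both arms included this contrast. The number of called genes is therefore also given without the libraries that stand apart. This was done for the comparisons with DTPs, short washout, DMSO and the mean effect of the other lines.

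**Figure D1:**
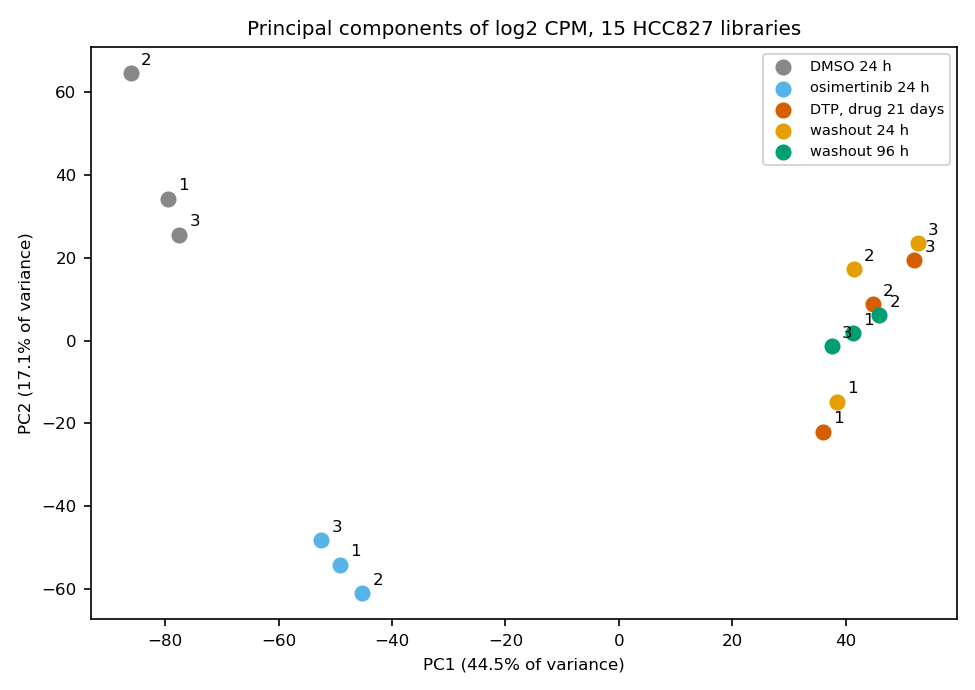
Principal components of log2 CPM for the 15 HCC827 libraries, with the percent of variance on each axis; each point is a library, its colour gives the arm and its number the replicate. DMSO and acute osimertinib lie at the left, and DTPs, short washout and long washout are interleaved at the right.

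Across the genome, 4 days without drug left no gene past the threshold. Of 14053 genes tested, 0 had an adjusted p under 0.05 (0% of genes; edgeR's quasi-likelihood test with Benjamini-Hochberg adjustment), and the smallest adjusted p was 0.806. At an unadjusted p under 0.05 there were 434 genes (3.09%), of which 249 were higher after washout (1.77%) and 185 were lower (1.32%). If no gene changed, a share of 0.05 would be expected at this level, and the 3.09% of this fit is below it. Genes given below with such a p are described and not taken as changed. List counts at this level are to be read beside these shares. The groups did not overlap in 546 genes that were higher (3.89%) and 496 that were lower (3.53%). DESeq2, run on the same counts, called 7 genes, 6 higher (DDIT4, KRT4, UBE3A, NAPSA, PPEF2 and ALDH1A1) and 1 lower (AC008758.1). Without DTP library 1 and long washout library 3 the edgeR count was again 0, with a smallest adjusted p of 0.0869. In that fit 858 of 14070 genes had an unadjusted p under 0.05. With a term for these libraries in place of their removal, 743 of 14053 genes did. Both shares are above 0.05, so the share below it depended on the fit. The median log2 fold change was -0.01 and its median size 0.11. A gene's 95% interval had a median half-width of 0.40 on the log2 scale, and for 10960 genes (78.0%) the whole interval lay within a 2-fold change in either direction. The biological coefficient of variation was 21.8%, so that the size of a change that could be detected depended on each gene's own spread.

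Against DMSO, the same 3 long washout libraries differed in 5491 of 13842 genes (39.7%), with 2730 higher (19.7%) and 2761 lower (19.9%), and 2203 (15.9%) passed at least a 2-fold change. Without long washout library 3 the count was 5311. Among the largest rises, ANKRD1, a cardiac ankyrin repeat protein and YAP target, went from a mean of 7.10 CPM in DMSO to 285 CPM after washout (log2 fold change 5.31, edgeR adjusted p 2.12e-06) and was at 411 CPM in DTPs. COL5A1, a fibrillar collagen, went from 19.4 to 418 CPM (log2 4.42, adjusted p 7.18e-06), with 485 CPM in DTPs. Among the largest falls, SCD, the stearoyl-CoA desaturase, dropped from 1748 to 289 CPM (log2 -2.61, adjusted p 2.21e-05), with 264 CPM in DTPs. ESRP1, an epithelial splicing regulator, dropped from 304 to 63.6 CPM (log2 -2.27, adjusted p 9.47e-05), with 58.4 CPM in DTPs. COL5A1, SCD and ESRP1 were named by the size of their difference from DMSO, after their values were seen. Correlations between DMSO libraries and the 9 libraries held in drug or washed out were 0.910 to 0.926, below each of those within the 9.

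**Figure D2:**
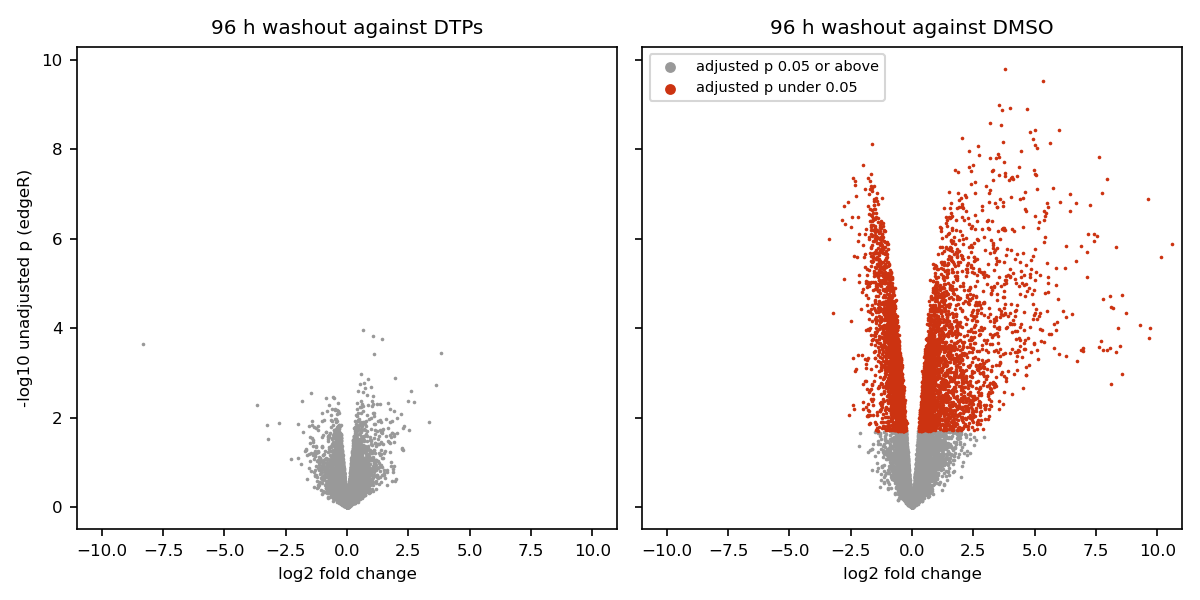
Log2 fold change (x axis) against -log10 of the unadjusted p (y axis) for genes tested in HCC827 long washout against DTPs (left) and for those of the same genes tested against DMSO (right), on the same axes, with called genes coloured. The left panel has 0 called genes, and called genes fill both sides of the right panel.

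Genes downstream of ERK split into those that rested on DTP library 2 and those that did not, and none passed the test. Of 23 members tested, 0 were called. At an unadjusted p under 0.05, 3 were higher (DUSP6, DUSP5 and JUNB), beside 1.77% of all genes. The median log2 fold change was 0.34, against -0.01 over all genes. DUSP6, the phosphatase that switches ERK off, was at 36.3, 28.98 and 24.9 CPM after long washout and at 10.8, 26.5 and 10.0 CPM in DTPs. The arms overlapped through DTP library 2 alone, and the log2 fold change was 0.93 (95% interval 0.11 to 1.76, unadjusted p 0.0322, edgeR adjusted p 1). DUSP6 stood at 0.788 to 3.68 CPM under acute osimertinib and at 17.4 to 21.4 CPM in DMSO, from which long washout differed by a log2 fold change of 0.57 (adjusted p 0.0257). SPRY4, another feedback inhibitor, lay at 6.86, 3.63 and 4.06 CPM after washout and at 4.84, 4.24 and 2.72 CPM in DTPs, with overlapping arms and a log2 fold change of 0.30 (95% interval -0.52 to 1.12). CCND1, the G1 cyclin that ERK sustains, was at 287, 218 and 238 CPM in DTPs and at 302, 210.2 and 379 CPM after washout, with overlap (log2 0.26), and MYC differed by -0.03 (95% interval -0.40 to 0.34).

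The immediate early genes EGR1, FOS and FOSB encode transcription factors that follow ERK activity and also serum and handling stress. They were looked at after their values were seen, since a single library decided them. EGR1 was at 81.4, 88.7 and 116.5 CPM after long washout and at 4.08, 149.6 and 4.79 CPM in DTPs. DTP library 2 was above all 3 washout libraries, and the other DTP libraries were far below them. FOS was at 65.5, 58.2 and 61.6 CPM after washout against 1.07, 93.3 and 3.10 CPM in DTPs, and FOSB at 18.3, 23.6 and 27.1 CPM against 1.38, 47.2 and 2.54 CPM, with the same DTP library above the washout libraries for each. With all 6 libraries, the log2 fold changes were 0.86 for EGR1 (unadjusted p 0.466), 0.93 for FOS (unadjusted p 0.454) and 0.44 for FOSB (unadjusted p 0.684), each with an edgeR adjusted p of 1. Without DTP library 2, these 3 genes and no others were called: EGR1 at a log2 fold change of 4.43 (adjusted p 0.00202), FOS at 4.88 (adjusted p 0.0208) and FOSB at 3.55 (adjusted p 0.0476). Every library was left out in turn, but this one held the values that made the arms overlap. The calls without it describe how far they rest on 1 library and are no support for a change.

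The same split was seen in other arms. At 24 h without drug, EGR1 was at 1.71, 115 and 3.92 CPM and FOS at 1.05, 77.5 and 1.63 CPM, so that short washout library 2 was high as well. Under acute osimertinib, EGR1 was at 18.1, 8.39 and 300.5 CPM, and in DMSO at 24.3, 123 and 33.6 CPM. An EGR1 level of at least 81.4 CPM, the lowest after long washout, was thus found in 1 of 3 libraries of each of the other arms. Antisense overlap was annotated for FOSB, which shares its locus with ERCC1 on the other strand, and for DUSP6 with AC024909.2. EGR1 lies at chr5:138465490-138469315 on the plus strand of GRCh38 and FOS at chr14:75278774-75282230 on the plus strand, both free of overlapping genes in GENCODE release 29.

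The 250 bases before the RefSeq start of EGR1 are shown because they hold the known element through which serum response factor reads ERK activity. They span chr5:138465229-138465478 on the plus strand of GRCh38.p14, with matches to the CArG box, the palindromic core bound by serum response factor, in capitals:
EGR1: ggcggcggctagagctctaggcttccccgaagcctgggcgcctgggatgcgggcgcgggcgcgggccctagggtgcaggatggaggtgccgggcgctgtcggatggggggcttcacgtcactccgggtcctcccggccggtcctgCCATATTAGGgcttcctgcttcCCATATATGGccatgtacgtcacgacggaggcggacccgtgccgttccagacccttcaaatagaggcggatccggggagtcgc
There were 2 matches, at -105 and -83 from the start, counted by their first base. Windows of the same length held at least 1 match in 407 of 35116 RefSeq promoters (1.16%), and those of FOS, FOSB, JUNB and DUSP6 held 0. Bases further upstream were not searched, so a 0 does not show that a gene lacks the element. A match is only a stretch of letters, and binding was not measured.

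**Figure D3:**
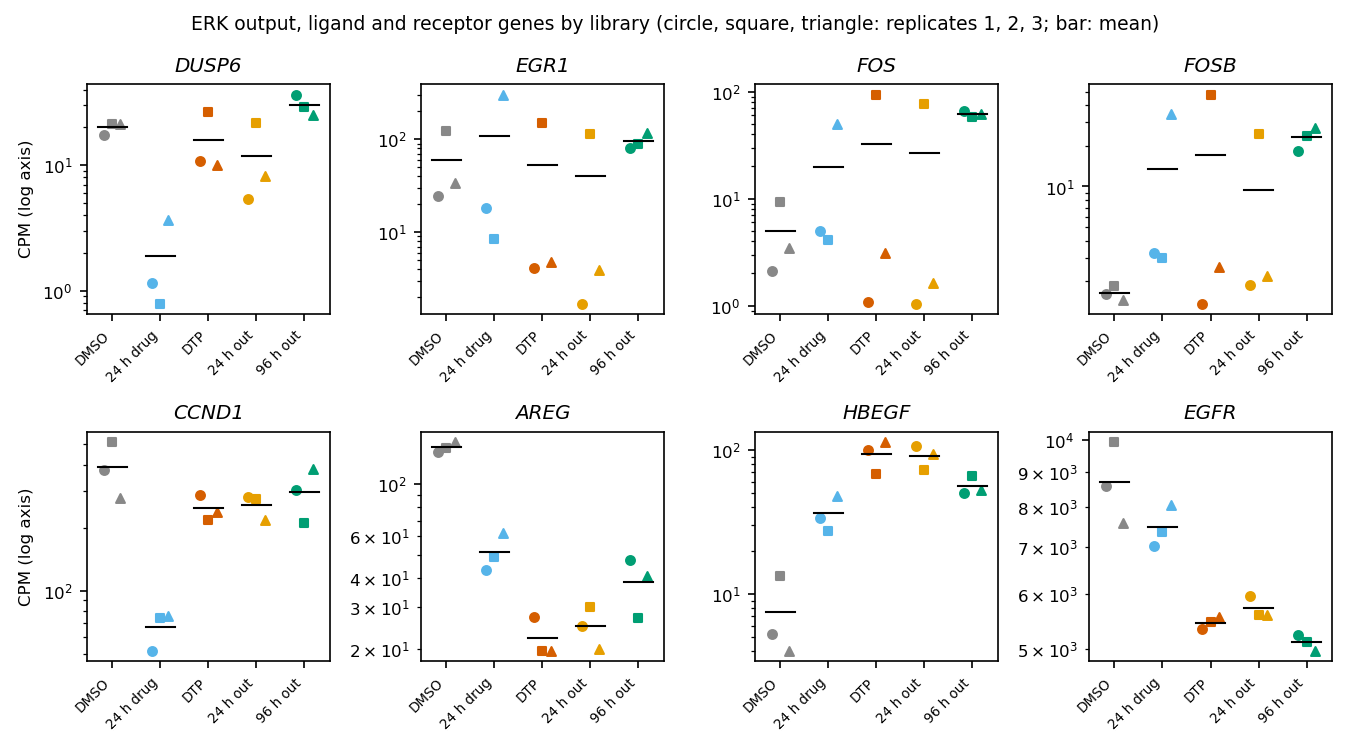
TMM-normalised CPM of genes downstream of ERK, EGFR and its ligands in the 15 HCC827 libraries, by arm, on log axes; each point is a library, its shape gives the replicate, and bars are means. For EGR1, FOS and FOSB, DTP library 2 and short washout library 2 lie with the 3 long washout libraries, and the other DTP libraries lie below them.

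The receptors and ligands around EGFR showed small differences, and 0 of 8 ERBB receptors and inhibitors were at an unadjusted p under 0.05. EGFR itself was at 5331, 5465 and 5551 CPM in DTPs and at 5233, 5114 and 4964 CPM after long washout. The washout libraries were all lower, by a log2 fold change of -0.09 (95% interval -0.27 to 0.08), and both arms lay below DMSO at a mean of 8704 CPM (long washout against DMSO, log2 -0.78, edgeR adjusted p 0.000424). ERBB3, the partner receptor without a strong kinase of its own, varied from 23.7 to 80.9 CPM in DTPs and from 49.7 to 66.4 CPM after washout. Of 7 EGFR ligands tested, 2 were higher and 1 lower at an unadjusted p under 0.05, beside 1.77% and 1.32% of all genes. AREG (amphiregulin) was at 27.2, 19.6 and 19.6 CPM in DTPs and at 47.4, 27.1 and 40.6 CPM after washout, overlapping only in the lowest washout library (log2 0.80, unadjusted p 0.00893, edgeR adjusted p 1), and stayed below the DMSO mean of 144 CPM (log2 -1.91, adjusted p 8.38e-05). HBEGF, another ligand, was lower in each washout library, with 99.7, 67.8 and 113 CPM in DTPs and 50.0, 65.7 and 52.9 CPM after washout (log2 -0.73, unadjusted p 0.00522), and was at 7.53 CPM in DMSO. EREG (epiregulin) was at 55.7 to 93.2 CPM in DTPs and 86.7 to 107 CPM after washout, with overlap (log2 0.28), against 315 CPM in DMSO.

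Among 12 receptor kinases that can bypass EGFR, 1 was higher at an unadjusted p under 0.05, beside 1.77% of all genes. MET, which is amplified in some resistant tumours, was at 627, 976 and 633 CPM in DTPs and at 1253, 947 and 1136 CPM after washout (log2 0.58, 95% interval 0.15 to 1.02, unadjusted p 0.0152), and the arms overlapped in DTP library 2. AXL, a receptor kinase tied to drug tolerance, was at 71.0, 194 and 267 CPM in DTPs and at 166, 239 and 154 CPM after washout (log2 0.08), and remained 9.72-fold above DMSO by the fit (edgeR adjusted p 1.30e-05).

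No proliferation gene was called between the arms, although the labels place the long washout at renewed growth. All 42 mitosis genes and 42 DNA replication genes were tested, and 0 were called in either list. The median log2 fold change was -0.04 for mitosis and 0.07 for DNA replication. For each of the 42 mitosis genes, and for 40 of the 42 replication genes, the 95% interval lay within a 2-fold change. MKI67, the proliferation marker Ki-67, was at 116, 212 and 202 CPM in DTPs and at 165, 186 and 173 CPM after washout. The washout values lay between those of DTP library 1 and the other DTPs (log2 -0.01, 95% interval -0.48 to 0.46). CDK1, the mitotic kinase, was at 31.3 to 54.5 CPM in DTPs and 36.1 to 47.7 CPM after washout (log2 -0.03). MCM2, a subunit of the replicative helicase, was at 89.4, 71.6 and 73.0 CPM in DTPs and 79.2, 76.2 and 115 CPM after washout (log2 0.21), and CDC6, which loads it, differed by a log2 fold change of 0.10.

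Long washout stayed below DMSO in these genes. Against DMSO, long washout was lower in 42 of 42 mitosis genes (median log2 -1.47), in 39 of 42 replication genes (median -1.14) and in 17 of 18 DNA repair genes (median -1.17), with 0 higher in each, against 19.9% of all genes lower. MKI67 was at 443 to 524 CPM in DMSO (log2 -1.49, edgeR adjusted p 2.03e-05) and at 70.2 to 116 CPM under acute osimertinib. In the replication list, CDT1, the licensing factor, was the 1 gene at an unadjusted p under 0.05, with 18.5, 22.3 and 18.5 CPM in DTPs and 26.5, 27.1 and 32.9 CPM after washout (log2 0.55, unadjusted p 0.00566). In the mitosis list it was ESPL1, the separase that cleaves cohesin, with 31.4, 34.7 and 34.1 CPM in DTPs and 24.4, 21.2 and 28.1 CPM after washout (log2 -0.44, unadjusted p 0.0123). Neither gene's arms overlapped, and over all genes 1.77% were higher and 1.32% lower at an unadjusted p under 0.05. CDKN1A, the cell cycle inhibitor p21, was at 22.1, 10.9 and 15.3 CPM in DTPs and at 7.97, 8.94 and 11.6 CPM after washout with overlap (log2 -0.76, unadjusted p 0.0262), and was the 1 gene of 15 G1 cyclins and CDK inhibitors at that level. The related inhibitor CDKN1B differed by -0.21.

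The DNA repair gene BRCA1, of homologous recombination, differed from DTPs by a log2 fold change of 0.15, and 0 of 18 repair genes were at an unadjusted p under 0.05. The ribosome biogenesis factors NOP56 and NCL differed by 0.03 and 0.00, with 95% intervals of -0.27 to 0.33 and -0.22 to 0.23. All 20 ribosome biogenesis genes had intervals within a 2-fold change, and 11 of the 20 were lower than in DMSO, beside 19.9% of all genes.

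Among metabolic genes, all of sterol synthesis and most of glycolysis were lower than in DMSO, and none was called against DTPs. Of 21 sterol synthesis genes, 0 were called and 1 was lower at an unadjusted p under 0.05, beside 1.32% of all genes. The median log2 fold change was -0.13, whereas 21 of 21 were lower than in DMSO (median -1.31), against 19.9% of all genes. SQLE, squalene epoxidase, was at 33.7, 42.6 and 46.6 CPM in DTPs and at 31.1, 35.9 and 30.1 CPM after washout, with overlapping arms (log2 -0.33, unadjusted p 0.0485). In the glycolysis list, 3 of 15 genes were higher at an unadjusted p under 0.05 and 0 were lower (median 0.25). Over all genes these shares were 1.77% and 1.32%. HK2, the first enzyme of the pathway, was at 35.9, 34.7 and 33.4 CPM in DTPs and at 44.5, 42.6 and 47.0 CPM after washout, without overlap (log2 0.37, unadjusted p 0.00855), and at 149 CPM in DMSO. The others were ALDOA at 0.28 and PGK1 at 0.25, and the arms did not overlap in either. The glucose transporter SLC2A1 differed by -0.22 with overlap. Against DMSO, 12 of the 15 were lower and 1 was higher, beside 19.9% and 19.7% of all genes.

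DDIT4, which restrains the growth kinase mTORC1 and is induced by stress through ATF4, had the smallest p of all genes. It was at 78.2, 83.9 and 89.7 CPM in DTPs and at 135, 132 and 126 CPM after washout. The arms did not overlap, and the log2 fold change was 0.64 (95% interval 0.43 to 0.86, unadjusted p 0.000108, edgeR adjusted p 0.806). DESeq2 called it, with an adjusted p of 3.00e-05. Both arms lay below DMSO, at 534 to 941 CPM (log2 -2.44, edgeR adjusted p 3.16e-05). DDIT4-AS1 is annotated on the other strand of its locus, chr10:72273920-72276036 of GRCh38. The other 13 ATF4 targets were not at an unadjusted p under 0.05. ASNS (asparagine synthetase) differed by -0.04 and CHAC1 (a glutathione-degrading enzyme) by -1.15, with a 95% interval of -3.62 to 1.32.

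Of 18 lysosome and autophagy genes, 0 were at an unadjusted p under 0.05, and 15 were higher than in DMSO, beside 19.7% of all genes. CTSD, a lysosomal protease, was at 460 to 481 CPM in DTPs and 457 to 603 CPM after washout (log2 0.16), and the membrane protein LAMP1 differed by -0.21. Of 14 targets of FOXO, the transcription factors that AKT keeps out of the nucleus, 1 was lower at an unadjusted p under 0.05 (median -0.22), beside 1.32% of all genes. Against DMSO, 7 were higher, beside the same 19.7%. BCL6 was at 46.0, 39.6 and 29.1 CPM in DTPs and at 31.5, 28.8 and 26.97 CPM after washout, with overlap through DTP library 3 (log2 -0.39, unadjusted p 0.0617), against 10.7 CPM in DMSO. CCNG2, another target, differed by -0.26. In the BCL2 family, which sets the threshold for apoptosis, 0 of 16 genes were at an unadjusted p under 0.05. The pro-apoptotic members BCL2L11 (BIM) and BMF differed by -0.10 and -0.14.

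Most interferon-stimulated genes were higher than in DMSO after long washout, and none was called against DTPs. Of 28 genes tested, 5 were higher than in DTPs at an unadjusted p under 0.05 and 0 were lower (median 0.29). Over all genes these shares were 1.77% and 1.32%. In the comparison with DMSO, 23 were higher and 0 lower (median 1.39), against 19.7% of all genes higher. OASL, an antiviral 2'-5'-oligoadenylate synthetase-like protein, was at 0.764, 2.91 and 2.77 CPM in DTPs and at 7.71, 3.63 and 14.9 CPM after washout, without overlap (log2 2.03, unadjusted p 0.0101). IFI44 was at 19.4, 42.0 and 29.4 CPM in DTPs and at 60.0, 38.7 and 54.9 CPM after washout (log2 0.76, unadjusted p 0.0235), and DTP library 2 overlapped with the lowest washout library. ISG15, a ubiquitin-like modifier, was at 0.255 to 0.516 CPM in DTPs and 0.790 to 2.01 CPM after washout, a low level in both (log2 1.66, unadjusted p 0.0169). IFIT1, which binds foreign RNA, differed by 0.28 with overlap. In OASL, IFI44, ISG15 and IFIT1, the lowest DTP value was that of library 1, which stands apart. EPSTI1, of the same list, was highest in that DTP library.

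Of 9 MHC class I and antigen processing genes tested, 0 were at an unadjusted p under 0.05 (median 0.03), and the HLA genes were not analysed here. The class II regulator CIITA and the invariant chain CD74 differed by 0.58 and 0.88, with neither at an unadjusted p under 0.05. Chemokines and interleukins had a median of -0.26 over 20 genes, with 0 at an unadjusted p under 0.05 and wide intervals. CXCL8, which attracts neutrophils, was at 7.64, 118 and 12.2 CPM in DTPs and at 12.7, 12.0 and 38.0 CPM after washout, so that DTP library 2 stood alone (log2 -1.13, 95% interval -3.31 to 1.05). CXCL1 and CXCL5 were highest in the same library, at 56.7 and 196 CPM. IL6 was at 12.1, 33.7 and 12.2 CPM in DTPs and at 6.17, 11.6 and 16.6 CPM after washout (log2 -0.75).

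Mucins, the glycoproteins of the epithelial surface, had the highest median of the 26 lists. Of 7 mucins tested, 5 were higher at an unadjusted p under 0.05 (MUC1, MUC4, MUC5AC, MUC13 and MUC20) and 0 were lower. Over all genes these shares were 1.77% and 1.32%. No mucin was called, and the median log2 fold change was 0.92. MUC20 was at 7.64, 14.7 and 7.61 CPM in DTPs and at 30.8, 18.9 and 19.1 CPM after washout, without overlap (log2 1.20, unadjusted p 0.00483). MUC1, the membrane mucin of glandular epithelia, was at 25.8, 45.3 and 27.8 CPM in DTPs and at 80.6, 53.7 and 46.6 CPM after washout, also without overlap (log2 0.87, unadjusted p 0.0109). DTP library 2 was the highest DTP library for both. As estimated counts, MUC1 was at 545 to 2213 in DMSO, which spanned the 884 to 1528 after washout, and at 2419 to 3953 under acute osimertinib. MUC20 was at 102 to 360 in DMSO and 878 to 1741 under acute osimertinib, against 348 to 584 after washout. Of the 7 mucins, 2 were higher and 1 was lower than in DMSO, beside 19.7% and 19.9% of all genes. MUC16 (CA125) was at 341, 159 and 133 CPM in DTPs and at 325, 234 and 235 CPM after washout, with overlap (log2 0.32). The secreted mucin MUC5B ranged widely, from 28.9 to 209.7 CPM in DTPs and from 144 to 374 CPM after washout (log2 1.55, unadjusted p 0.0551).

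**Figure D4:**
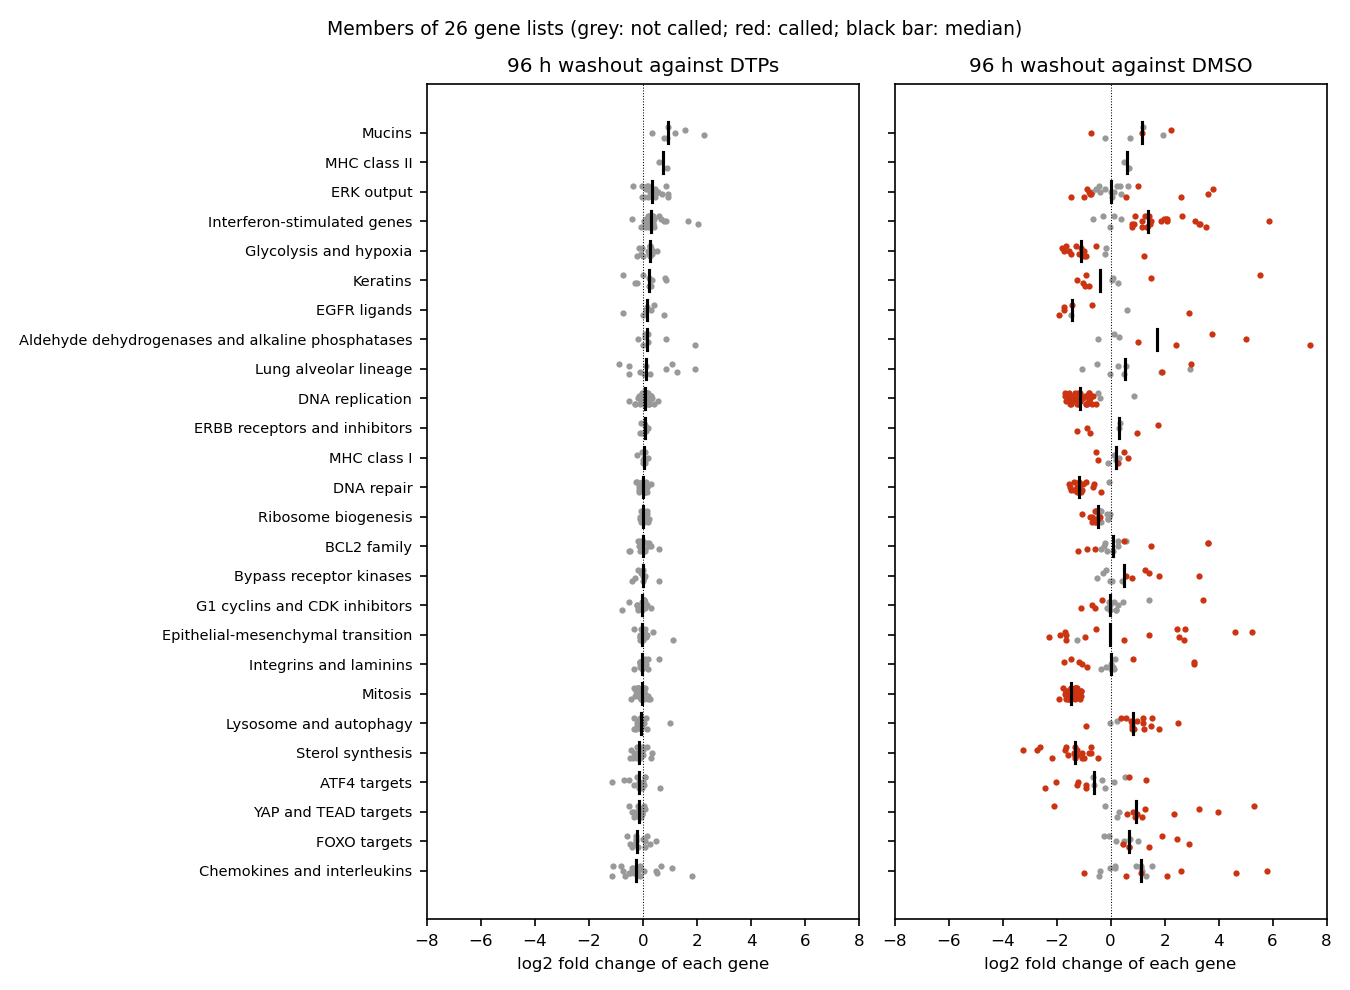
Log2 fold change of long washout against DTPs (left) and against DMSO (right) for each tested gene of the 26 gene lists, a point for each gene, red where called, with a bar at the median of each list. On the left 0 genes are called and mucins have the highest median, 0.92; on the right all 42 mitosis genes and all 21 sterol synthesis genes are called and lie below 0.

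Among YAP and TEAD targets, which read mechanical tension and cell density, 0 of 14 were called (median -0.15). At an unadjusted p under 0.05, 3 were lower and 0 were higher, beside 1.32% and 1.77% of all genes. ANKRD1 was at 359, 382 and 493 CPM in DTPs and at 279, 273 and 303 CPM after washout, without overlap (log2 -0.53, unadjusted p 0.00355). CCN1, a matrix protein, was at 2025, 1833 and 1875 CPM in DTPs and at 1349, 1469 and 1762 CPM after washout, without overlap (log2 -0.32, unadjusted p 0.0256). CCN2 was at 168.4, 176 and 116 CPM in DTPs and at 92.6, 104 and 154 CPM after washout, with overlap (log2 -0.39), and was at 7.41 CPM in DMSO. In all, 10 of the 14 were higher than in DMSO and 1 was lower, beside 19.7% and 19.9% of all genes.

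Of 16 mesenchymal and epithelial genes tested, 0 were called and 1 (SNAI1) was higher at an unadjusted p under 0.05, beside 1.77% of all genes. VIM (vimentin) was at 811, 806 and 1062 CPM in DTPs and at 842, 958 and 740.3 CPM after washout (log2 -0.07, 95% interval -0.40 to 0.25), 6.53-fold above DMSO by the fit (edgeR adjusted p 8.13e-06). CDH1 (E-cadherin) was at 497, 218 and 180.4 CPM in DTPs and at 302, 218 and 340.1 CPM after washout (log2 -0.06), against 1052 CPM in DMSO (adjusted p 4.19e-05), and DTP library 1 held the highest value. SNAI1, a repressor of E-cadherin, was at 0.866 to 1.77 CPM in DTPs and 2.80 to 3.48 CPM after washout (log2 1.12, unadjusted p 0.0185), and at 9.42 CPM in DMSO. The simple keratins KRT8 and KRT18 differed by 0.28 and 0.34 (unadjusted p 0.221 and 0.0425), and both overlapped. In the keratin list, 2 of 10 were higher at an unadjusted p under 0.05, beside 1.77% of all genes. KRT8 has many annotated pseudogenes, so that its reads may be shared. The integrins ITGB1 and ITGA2 differed by -0.05 and -0.03, with 95% intervals of -0.26 to 0.16 and -0.41 to 0.35. Only 1 of 15 integrins and laminins, ITGAV, was lower at an unadjusted p under 0.05 (log2 -0.33), beside 1.32% of all genes. Of 11 alveolar genes tested, without the lineage factor NKX2-1, 2 were higher at an unadjusted p under 0.05 (NAPSA and SFTPA2), beside 1.77% of all genes. Of the alveolar genes, the surfactant protein gene SFTPB was near 0 in both arms, at 0.255 to 3.15 CPM in DTPs and 0.844 to 1.63 CPM after washout.

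ALDH1A1, an aldehyde dehydrogenase used as a marker of stem-like tumour cells, was at 1.83, 3.55 and 4.04 CPM in DTPs and at 16.3, 12.9 and 6.64 CPM after washout. The arms did not overlap, and the log2 fold change was 1.93 (95% interval 1.03 to 2.83, unadjusted p 0.00127, edgeR adjusted p 1). In DMSO it was at 0 to 0.142 CPM, and at 24 h of washout it was at 1.38, 5.46 and 11.1 CPM. ALDH1A3, of the same family, was at 303, 158 and 289 CPM in DTPs and at 161, 251 and 249 CPM after washout (log2 -0.19). In the list of aldehyde dehydrogenases and alkaline phosphatases, 2 of 8 were higher at an unadjusted p under 0.05, beside 1.77% of all genes. Against DMSO, 5 were higher, beside 19.7% of all genes.

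**Figure D5:**
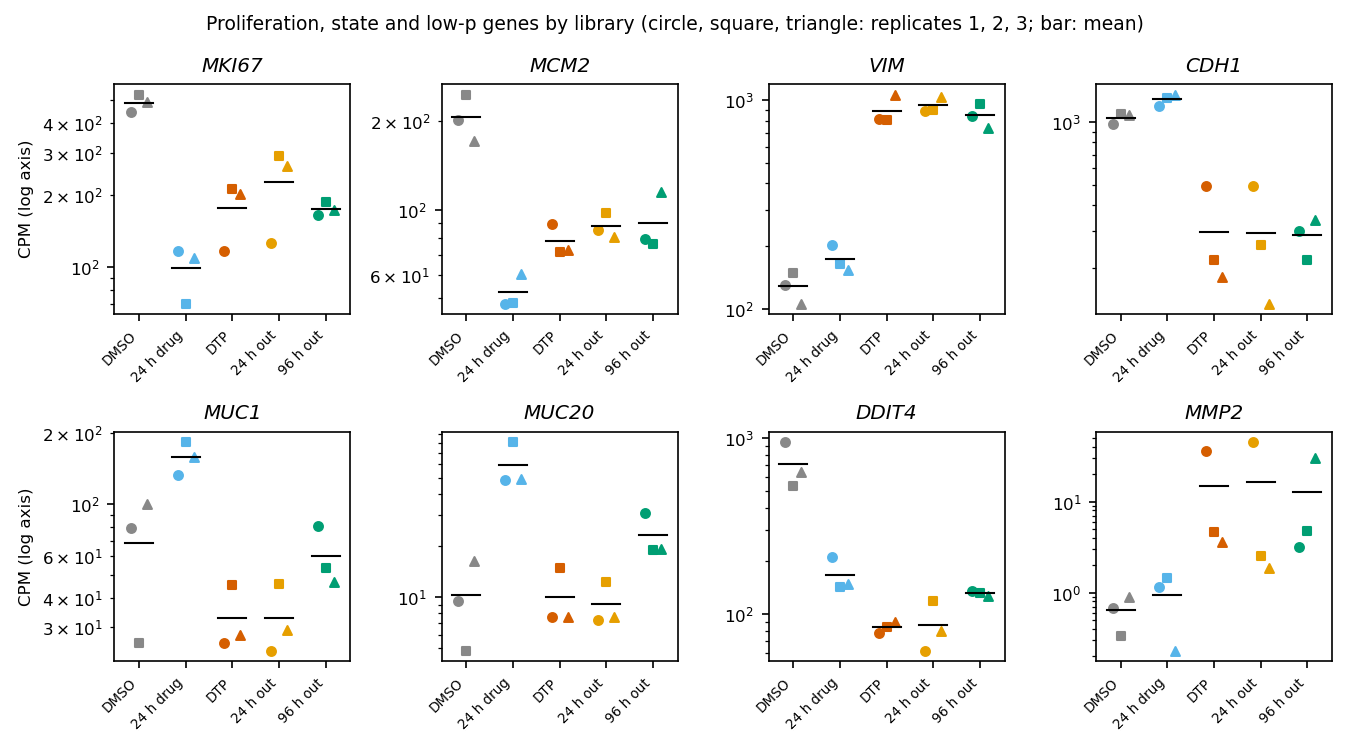
TMM-normalised CPM of genes of growth, cell identity and stress in the 15 HCC827 libraries, by arm, on log axes; each point is a library, its shape gives the replicate, and bars are means. For DDIT4 the 3 long washout libraries lie above the 3 DTP libraries and below DMSO, and for MKI67 the long washout values lie within the range of the DTPs.

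The 20 genes with the smallest p, taken after their values were seen, held 17 that were higher after washout and 3 that were lower, none with an adjusted p under 0.806. Of the 17, 12 differed from DMSO by the adjusted test, some above it, as KRT4, and some below it, as HMGA1. Over all genes 39.7% differed, but both tests share the long washout libraries, so this share is not a like reference. KRT4, a keratin of stratified mucosa, was at 4.79, 6.06 and 4.37 CPM in DTPs and at 13.9, 15.9 and 11.2 CPM after washout (log2 1.43, unadjusted p 0.000173), with 0.880 to 1.66 CPM in DMSO. NAPSA, the aspartic protease of alveolar cells, was at 23.2, 15.2 and 16.1 CPM in DTPs and at 42.0, 35.6 and 38.1 CPM after washout (log2 1.08, unadjusted p 0.000381), and its values in DMSO, 29.1 to 82.5 CPM, spanned those after washout. UBE3A, a ubiquitin ligase, was at 9.12, 9.42 and 8.78 CPM in DTPs, at 16.3, 20.5 and 19.3 CPM after washout and at 18.2 to 21.0 CPM in DMSO (log2 1.04 over DTPs, unadjusted p 0.000152). NAPSA overlaps NR1H2, and UBE3A overlaps SNHG14 and AC100774.1, so that reads of these loci cannot be told apart without strand. HMGA1, an architectural chromatin protein with annotated pseudogenes, was at 195, 259 and 198 CPM in DTPs and at 371, 287 and 467 CPM after washout (log2 0.79, unadjusted p 0.0031), below DMSO at 837 CPM. MST1R, the receptor kinase RON, was at 13.1 to 15.3 CPM in DTPs and 19.6 to 26.2 CPM after washout (log2 0.72, unadjusted p 0.00222), below DMSO at 50.8 CPM.

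Long washout was also compared with short washout, to separate 24 h from 96 h without drug. Of 13976 genes, 0 were called (0%; smallest edgeR adjusted p 0.488), and 824 (5.9%) had an unadjusted p under 0.05, 462 higher at 96 h (3.31%) and 362 lower (2.59%). DESeq2 called 48, of which 31 were higher and 17 lower, and without the libraries that stand apart edgeR called 3, CFI (1.05), ESPL1 (-1.37) and TAGLN (-1.58, as log2 fold changes). DUSP6 was at 5.40, 21.6 and 8.18 CPM at 24 h, below each of the 3 long washout libraries (log2 1.38, unadjusted p 0.0145). MKI67 was at 126, 291 and 265 CPM at 24 h (log2 -0.37), and the mitosis list had a median of -0.33 over its 42 genes, with overlap in MKI67 and CDK1. MUC20 at 7.33, 12.3 and 7.64 CPM and KRT4 at 2.86, 4.51 and 5.59 CPM were below every long washout library, by log2 fold changes of 1.35 and 1.67 (unadjusted p 0.00108 and 0.000244). Without short washout library 2, FOS, EGR1 and FOSB were called, with log2 fold changes of 5.50, 5.05 and 3.48. That library held the high values of these genes at 24 h, so the calls are no support for a change. Both comparisons share the long washout libraries.

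The washout effect of HCC827 was set against the mean effect in the other 3 lines, each with its own long washout of 7 days (PC9), 3 days (H1975) or 10 days (HCC2935), so that line and time cannot be told apart. Of 16136 genes, 0 differed (0%; smallest edgeR adjusted p 0.0602), and 1833 (11.4%) had an unadjusted p under 0.05. DESeq2 called 77, and edgeR called 44 without PC9 long washout library 3 and 0 without the HCC827 libraries that stand apart. Fitted on their own 6 libraries, PC9 had 2496 genes past the threshold between long washout and DTPs (17.3%), HCC2935 had 745 (5.16%) and H1975 had 2 (0.0136%), beside the 0 of HCC827. Tested against PC9 alone, the effect of HCC827 differed in 1019 genes (6.32%), with 284 higher (1.76%) and 735 lower (4.56%). Against HCC2935 it differed in 11 (0.0682%) and against H1975 in 0 (0%), where 0 does not show that those lines responded alike. These tests against single lines were not repeated without the libraries that stand apart. In the mitosis list, median log2 fold changes were -0.04 in HCC827, 1.11 in PC9, -0.31 in H1975 and 1.37 in HCC2935, and the difference between HCC827 and PC9 was called for 5 of 42 genes, beside 13 of 42 for DNA replication and 9 of 20 for ribosome biogenesis. MKI67 had a log2 fold change of 1.13 in PC9 (edgeR adjusted p 0.0159) and 1.57 in HCC2935 (adjusted p 0.00808), and its difference between HCC827 and PC9 was not called (adjusted p 0.119). For mucins the medians were 1.09 in HCC827, -1.33 in PC9, 0.26 in H1975 and 0.02 in HCC2935, with 4 of 10 genes called for the difference between HCC827 and PC9.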

How the data were processed

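RNA from HCC827 cells was sequenced as Illumina TruSeq mRNA libraries with paired 150-base reads. Deposited by the authors were estimated counts of 19712 gene symbols, without normalisation, and log2 TPM values with a pseudocount of 0.01; the submitters' processing notes name HISAT2 2.1.0, Salmon 0.8.2 and hg38, and the strand setting is not given in the sources used here. The estimated counts were rounded and fitted with edgeR 4.0.16 in R 4.3.3 (TMM, filterByExpr, quasi-likelihood F-test, Benjamini-Hochberg adjustment over all genes tested, calls at an adjusted p under 0.05). Each comparison used its own libraries (long washout against DTPs, short washout or DMSO, 6 libraries each, 3 for each arm), and the difference between lines used 24 libraries with the interaction of line and arm. Groups came from the sample labels. Unadjusted p-values are from the same fits. The fits were tested on simulated counts drawn independently for each library, without the split of the libraries that stand apart. That test therefore does not show what could be detected in these data. CPM values are TMM-normalised over the 15 HCC827 libraries, and correlations and principal components used log2 of CPM with a pseudocount of 1. Alternatives were DESeq2 1.42.0, the log2 TPM values with limma 3.58.1, scaling by RLE or by library size, a minimum of 10 counts per library or no filter, a threshold of 0.01, the replicate number as a block, larger fits, each library left out, and, added after seeing the data, fits without or with a term for the libraries that stand apart. The comparison, the 26 gene lists and the tests were chosen with earlier results of these data known. Genes were named by a rule: the first 2 members of each list, where the listed symbol matched a deposited one, and called genes with the largest changes. Of the called genes there were none in long washout against DTPs. All other named genes were chosen after their values were seen. Spread between replicate libraries of DTPs and of long washout was larger than counting error (chi-square per gene of 11.4 to 47.6 for genes with at least 20 counts). Coordinates came from GENCODE release 29 on GRCh38, joined by symbol, and promoter sequence from RefSeq on GRCh38.p14. Figures were drawn with Python 3.11.15 and matplotlib 3.10.9. HLA genes and 17 listed genes in all were not analysed here. NKX2-1 was among them, because its deposited symbol is written NKX2.1 and was not matched. A few genes that the rule would name are not reported here.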

Additional observations from a re-analysis of the deposited data

Results flagged for a closer look

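The difference between the washout effect of HCC827 and that of another line was tested as an interaction term in the fit of 24 libraries, and lines differ in washout time. It was called for 1019 genes against PC9, with 284 higher in HCC827 and 735 lower, and for 11 genes against HCC2935. Among the genes named by rule, 6 differed from PC9, as log2 differences of HCC827 minus PC9. MUC16 differed by 2.61 (edgeR adjusted p 0.0141), with a log2 fold change of 0.33 in HCC827 and -2.28 in PC9. MUC1 differed by 2.09 (adjusted p 0.0164), with 0.88 and -1.22. EREG differed by 1.51 (adjusted p 0.0296), with 0.28 and -1.23. NOP56 differed by -0.96 (adjusted p 0.0235), with 0.03 and 0.99, SQLE by -0.90 (adjusted p 0.0199), with -0.33 and 0.57, and NCL by -0.78 (adjusted p 0.0199), with 0.00 and 0.78. None of the 6 had a difference from H1975 or HCC2935 past the threshold.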

How the results depend on the processing

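With 3 libraries an arm, the change that could be detected depended on each gene's spread. Long washout against DTPs had 0 called genes with limma on log2 TPM, scaling by RLE or by library size, a minimum of 10 counts per library or no filter, a threshold of 0.01, fits of all 15 HCC827 or all 60 libraries, and a term for the libraries that stand apart. DESeq2 gave 7, and leaving out single libraries gave 0 to 3. Long against short washout had 48 with DESeq2, 0 to 3 with single libraries left out and 3 without the libraries that stand apart (CFI, ESPL1 and TAGLN). Long washout against DMSO had 3366 at a threshold of 0.01, 3991 to 5311 with single libraries left out and 4994 to 6155 under the other alternatives that keep every library and have no block. The difference from the mean of the other 3 lines had 77 with DESeq2 and 1 with limma (CES4A), 1019 against PC9 alone, 11 against HCC2935 alone, and 0 to 44 with single libraries left out: 44 without PC9 long washout library 3, 3 without HCC2935 long washout library 1, 3 without HCC827 DTP library 2, 2 without HCC827 long washout library 3 and 1 without PC9 long washout library 2. The cause was not tested. Of 1850 values of 103 named genes under the alternatives, 1748 moved by at most 1 SE, 94 moved further, 8 became called and 0 reversed as called values.

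The replicate numbers did not pair the libraries: deviations from the arm means correlated at -0.156, 0.0717 and -0.243 between same-numbered long washout and DTP libraries. With the replicate number as a block, 0 genes were called in long washout against DTPs, 0 in long against short washout, 4657 in long washout against DMSO and 0 between lines. No long washout library correlated best with the DTP or short washout library of its own number. Long washout library 3, for example, correlated best with DTP library 1 (0.336). The block therefore joined libraries that were not the most alike, and its counts do not stand for a paired design.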
